A study of Mus musculus with 2 samples.

Results

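The sites described here are the 358 positions, of 17755 in the list, at which an editing level of 20% or more was given. They fell in 339 of 6929 genes (4.89%), and 2.02% of all listed sites reached that level. The level of each site chose it, so levels are given as a description and without a test. The data came from 2 libraries of nuclei from mouse cortex, stained for the neuronal nuclear protein NeuN and sorted by flow cytometry. All mice carried APOBEC1-YTH, were 10 weeks old when tamoxifen began, received 20 mg/kg at intervals of 24 hours for 5 days, and were sampled 7 days after the last dose. The sources used here do not give the promoter that drives the transgene, its place in the genome, the strain of the mice or the number of animals behind each library. Both libraries were combined by the authors into 1 list without coverage, so the depth is unknown and no spread between libraries can be given. Mice without the editor were not analysed here.

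APOBEC1-YTH joins a cytidine deaminase to the YTH domain, which binds N6-methyladenosine (m6A) in RNA. The deaminase turns cytidines near the bound m6A into uridines, which are read as C-to-T changes. The editing level of a site is the share of its reads that carry the change, and it depends on methylation, on binding and on how well the cytidine is placed. A genomic variant with T in place of C on an allele gives the same kind of read, whether or not the RNA was methylated. No genotype data accompany the list, so whether a given high level reflects editing, a variant or misplaced reads was not tested.

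A reference sequence was at hand only for windows around gene starts, from 250 bases before to 50 bases after the start (RefSeq, GRCm38.p6). They covered 255 listed sites, of which 5 were at 20% or more. All 255 sites were a C on the listed strand. The 5 are shown because they are the only highly edited sites whose surroundings could be read. Each is printed on the listed strand with up to 25 bases on either side, and the capital marks the edited C.
H2bc8, chr13:23571413-23571449, plus strand: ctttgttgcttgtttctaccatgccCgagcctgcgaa
Mrtfb, chr16:13256498-13256548, plus strand: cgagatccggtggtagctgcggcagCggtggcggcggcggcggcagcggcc
Urm1, chr2:29827380-29827430, plus strand: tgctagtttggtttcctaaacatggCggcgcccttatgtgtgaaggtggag
Rps25, chr9:44407699-44407749, plus strand: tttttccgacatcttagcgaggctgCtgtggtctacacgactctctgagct
Gm16759, chr9:63399113-63399163, plus strand: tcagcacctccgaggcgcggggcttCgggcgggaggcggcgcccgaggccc

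In H2bc8, a histone H2B gene, the site was at base 39 of the gene and was edited at 20.69%. The site of Urm1, which encodes a ubiquitin-like modifier, lay at base 17 and was edited at 20.00%. Rps25, a ribosomal protein gene, had its site at base 11 with 21.31%. The site of Mrtfb, a coactivator of serum response factor, was 37 bases before a listed start and 467 bases into the RefSeq span of the gene, and was edited at 47.37%. In Gm16759 the site was 179 bases before the start, at 23.08%. Histone and ribosomal protein genes have near copies elsewhere in the genome, so the levels in H2bc8 and Rps25 are uncertain.

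The m6A consensus places an A directly before a C. The base before the edited C was A in 0 of the 5 sites, G in 3, C in 1 and T in 1. Of the other 250 listed sites in these windows, 42 (16.8%) had A before the C and 127 (50.8%) had G. Among all cytidines of the windows, counted on both strands, 18.2% had A before them and 27.7% had G. The base after the edited C was G in 4 of the 5 sites, in 36.0% of the other 250 and in 15.5% of all cytidines of the windows. GGAC, a common form of the consensus, was in 0 of the 5 printed stretches on either strand, against 23.6% of the other 250 on the listed strand and 20.4% on the opposite strand. GAC, which GGAC contains, was in 1 of 5 stretches on the listed strand (Rps25) and in 54.4% of the other 250. AAC was in 1 of 5 (Urm1) and in 30.0%. On the opposite strand GAC was in 1 of the 5 stretches and AAC in 2, against 51.6% and 22.4% of the other 250. With 5 sites, all near gene starts, these counts describe the 5 only.

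More than any other value, the minimum itself filled the group. Of the 358 sites, 197 (55.0%) were at exactly 20.00% and 161 were above it. The level 20.00% was the 13th most frequent in the list, and the highest among the 15 most frequent. Each of these 15 levels can be written, after rounding, as a ratio of small whole numbers, a form that few reads can give. Without coverage, the number of reads behind them is unknown. Whether the sites at 20.00% had few reads was not tested. The most frequent was 16.67%, with 261 sites, and 191 sites were at 18.18%. Just inside the minimum, above 20.00%, were the sites of Snhg14 (20.59%), Ptprb (20.62%), H2bc8 (20.69%), Lrrc8b (20.75%) and Eloa (20.83%). Just outside were Ctbs (19.885%), Usp19 (19.875%), Hjurp (19.72%), Eprs (19.44%) and Tspan7 (19.30%).

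From 20% to under 25% there were 248 sites, of which 197 were at exactly 20.00%. From 25% to under 30% there were 39, from 30% to under 40% 42, from 40% to under 50% 15, and at 50% or more 14. The 161 sites above 20.00% had a median of 28.57% (quartiles 23.08% and 34.48%). Over all 358 sites the upper quartile was 27.27% and the 90th percentile 35.71%. The median over all listed sites was 3.64%. Between 62.80% and 83.33% there was no site, and 7 sites were at 80% or more.

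**Figure D1:**
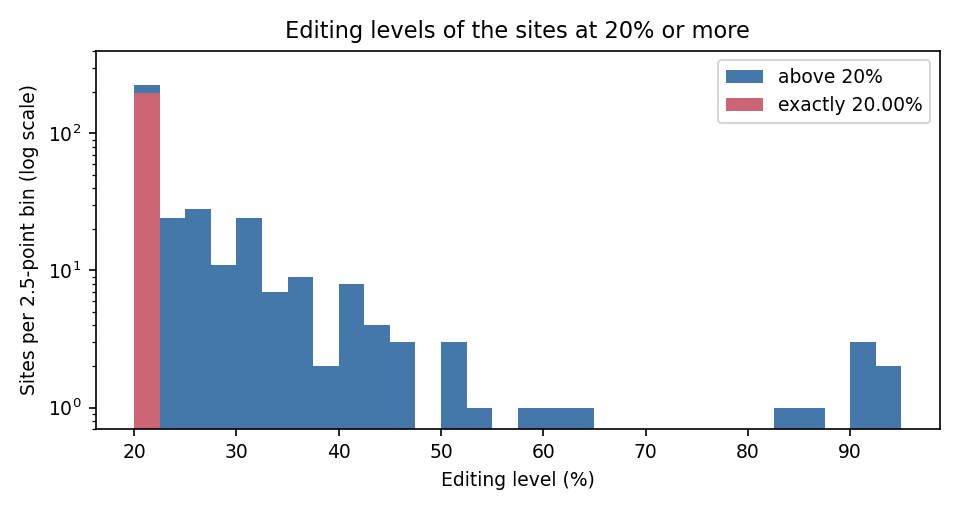
Number of sites (log scale) by editing level in bins of 2.5 percentage points, for the 358 sites at 20% or more. The red bar is the 197 sites at exactly 20.00%, the blue bars are the 161 sites above it, and 7 sites stand apart above 80%.

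The 14 sites at 50% or more lay in 13 genes of unlike function. Actr1a, which encodes the actin-related protein of dynactin, held the highest level, 94.87% at chr19:46378003, 1190 bp from the 3′ end of its span. Its other 4 sites were at 3.91%, 6.67%, 1.61% and 3.12%, the nearest of them 137 nt away. Ints1, a subunit of the Integrator complex, had 59.09% at chr5:139755230 and 6 further sites from 3.70% to 9.52%. In both genes the high level belonged to 1 position, and no other listed position exceeded 9.52%.

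Cwc22, a splicing factor gene, was the only gene with 2 sites at 50% or more, 91.11% at chr2:77917102 and 51.72% at chr2:77927291, which lie 10189 bp apart. Its other 2 sites were at 18.18% and 3.33%. Acvr1, a type I receptor for bone morphogenetic proteins, had 92.86% at chr2:58567080. That position is outside the RefSeq span of Acvr1 and inside that of Upp2, and the other 2 sites of Acvr1 were at 7.41% and 9.52%. Sh3bp2, an adaptor protein gene, had 50.00% beside 10.00% and 12.50%.

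In 5 of the 13 genes the high site was the only one listed. These were Abcg4, a lipid transporter gene (90%, chr9:44288202), Scd3, a stearoyl-CoA desaturase gene (85.71%, chr19:44235863), the pseudogene Gm18336 (83.33%), Gm49249 (60%) and Eps8, an actin regulator gene (50.00%, chr6:137479037). The Scd3 site also lay inside the span of Pkd2l1. Gm10718 had 62.80% at chr9:3024448 and 1.03%, 1.06% and 2.09% at its other 3 sites. Over the 8 genes with further sites under 20%, those 25 sites ranged from 1.03% to 18.18% with a median of 4.17%, and 5 of them reached 10%. Pseudogenes and loci with near copies can share reads with their relatives, which makes the levels in Gm18336 and Gm10718 uncertain.

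Few high sites were in genes with many sites. Of the 358, 17 (4.75%, exact 95% interval 2.79% to 7.49%) were in genes with 10 or more listed sites, against 16.5% of the sites under 20%. The share differed within the group, with 4 of the 197 sites at exactly 20.00% (2.03%) and 13 of the 161 above it (8.07%). These intervals cover counting error only. The 15 genes concerned held 238 further sites, from 1% to 18.18% with a median of 3.52%, and 166 of them were under 5%.

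Slc1a4, a neutral amino acid transporter gene, had 22.79% at chr11:20303528, between sites at 1.79% and 1.32%. The highest of its other 19 sites was 10.53%. Agpat3, a lipid acyltransferase gene, had 22.73% and 19 other sites, none above 4.88%. Kmt2c, a histone H3 lysine 4 methyltransferase gene, had 25.64% and 22.96% at positions 144839 bp apart (chr5:25299030 and chr5:25443869), while its other 14 sites ranged from 1.03% to 6.67%. In Agpat3 and Kmt2c the next level was under 7%.

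The distance to the next level varied among the remaining genes. Dag1, which encodes dystroglycan, had 22.22%, followed by 10.81% and 10.53% among its 20 sites, and a site 4 nt from the high one was at 7.41%. Thap12 had 28.57% among 14 sites, of which 6 others were above 10%, the highest at 16.67%. Pcdh10, a protocadherin gene, had 20.00% at 31 bp from its 3′ end, and a further site reached 18.18%. The atypical cadherin genes Fat4 (25.00%, next 16.67%), Fat1 (20.00%, next 8.11%) and Celsr2 (27.27%, next 8%) had 1 high site each. So did Hip1, an endocytic adaptor gene (30.38%, next 16.67%), Ptprb, an endothelial phosphatase gene (20.62%, next 14.29%), and Xpr1, a phosphate exporter gene (20.00%, next 15.38%). The high site of Abat, the gene for GABA transaminase, was at 25.00% and 253 bp from the 3′ end, with the next level at 6.90%. Itih5 had 20.00%, next 11.11%.

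**Figure D2:**
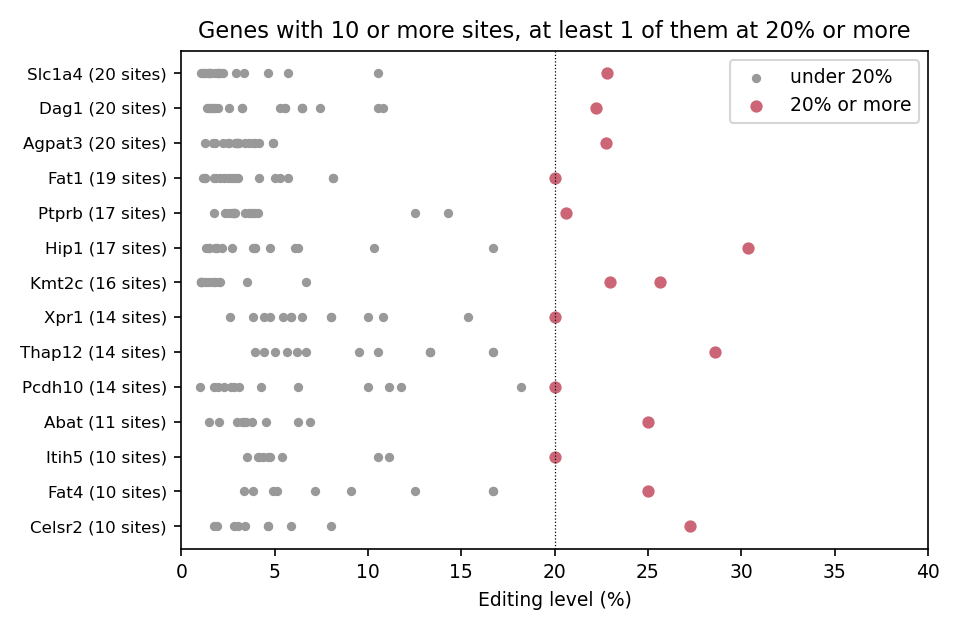
Editing level (%) of every listed site of 14 of the 15 genes that have 10 or more sites and at least 1 at 20% or more. Each point is a site, red at 20% or more and grey below, and Kmt2c has 2 red points while the other genes shown have 1.

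Most genes with a highly edited site had 1 of them, and 17 genes had 2 or more. In 4 of these 17 every listed site was high: Gm20300 (21.43% and 20.00%), Mcm9, a helicase gene (20.00% at both), Rbm41 (20.83% and 20.00%) and Trim25, a ubiquitin ligase gene (20.00% at both). Lrp6, the Wnt co-receptor gene, and Abcc9, a subunit gene of ATP-sensitive potassium channels, had 3 each. Neighbouring high sites of 1 gene formed 19 pairs, 8 of them within 300 nt and 10 more than 1000 nt apart. The closest pair was in Rnf213, a large ubiquitin ligase gene, 30 nt apart with 31.595% and 29.82%, while its other 4 sites were between 2.33% and 3.81%. Stx6, a SNARE gene of the trans-Golgi network, had 44.44% and 46.67% at 223 nt. Klhl11 had 23.08% and 20.00% at 63 nt, and Gorasp2, a Golgi stacking gene, 29.03% and 20.00% at 763 nt. Pan3, which encodes a deadenylase subunit, had 25.68% and 31.25% at 26091 nt. In the close pairs of Rnf213 and Stx6 both levels were nearly equal. They lay further apart in those of Lrp6 (54.55% and 37.21%, 129 nt), Abcc9 (36.84% and 20.00%, 55 nt) and Etv6 (35.00% and 24.24%, 81 nt).

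The high sites were chosen by level, so most neighbours were bound to be lower. Their levels are therefore set beside those of the neighbours of other sites. For 216 of the 358 sites another site was listed in the same gene, and the nearest had a median level of 8.11% (quartiles 4.85% and 13.3%). It was under 5% in 58 cases and itself at 20% or more in 23. For sites under 20% that have a neighbour, the median nearest level was 3.17%, and for sites from 10% to under 20% it was 6.90%. The list gives no coverage, so these medians could not be compared at equal read depth. Among the 51 high sites with a neighbour in the gene within 100 nt the median neighbour was 12.5% (range 1.03% to 36.84%). No value for other sites at that distance is given, and the 3.17% and 6.90% are for neighbours at any distance.

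Within 20 nt, 12 high sites had 14 neighbours, of which 0 reached 20% and the median was 12.9%, again without a value for other sites at that distance. Some of these neighbours were close to the high level, and without coverage it is unknown whether few reads lie behind both. Rab21, a small GTPase gene, had 20.00% and 16.67% at 17 nt, Gm43080 20.00% and 18.18% at 19 nt, Fat4 25.00% and 16.67% at 16 nt, and Stau1, a double-stranded RNA binding protein gene, 23.53% and 13.33% at 8 nt. Mindy2, a deubiquitinase gene, had 20.00% with 14.29% and 13.33% at 12 and 17 nt. Nceh1 (28.57% and 12.50%, 4 nt) and Thap12 (28.57% and 13.33%, 5 nt) were similar.

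In others the neighbour was under 5%. Cant1, a nucleotidase gene, had 29.67% and 2.90% at 3 nt. Rnu3b1, a gene of the U3 small nucleolar RNA, had 26.82% and 1.15% at 14 nt. Ptprb had 3.85% at 5 nt and 3.70% at 12 nt beside its 20.62%. The U3 RNA has several gene copies, so the level in Rnu3b1 is uncertain.

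Many high sites were alone in their gene, and few had close neighbours. The only listed site of a gene accounted for 142 of the 358 (39.7%, exact 95% interval 34.6% to 44.9%), against 18.8% (18.2% to 19.4%) of the 17397 sites under 20%. A further site within 100 nt on the same strand was listed for 51 (14.2%, 10.8% to 18.3%), against 23.0% of the others. That share was 8.12% for the 197 sites at exactly 20.00% and 21.7% for the 161 above it. The list gives no coverage, so sites covered by many and by few reads cannot be told apart in these shares.

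Most high sites lay near gene ends. Of the 311 that lay inside the RefSeq span of their gene, 195 (62.7%, 57.1% to 68.1%) were within 5 kb of the 3′ end, against 49.4% (48.7% to 50.2%) of the others. The median distance to the 3′ end was 3145 bp, against 5144 bp for the others. In the last 1 kb were 25.1% and 15.9%. The first 1 kb of the span held 31 of 311 (9.97%, 6.87% to 13.8%), against 7.97% of the others, and the second value is inside the interval of the first. More than 100 kb from the 3′ end were 15 of the 311 (4.82%), among them the Hip1 site (138495 bp), the Erc2 site (565625 bp) and the Fat4 site (121004 bp).

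These shares also differed between bands of level under 20%. The share within 5 kb of the 3′ end was 38.8% at 1% to under 2%, 46.3% at 2% to under 5%, 57.8% at 5% to under 10% and 66.5% at 10% to under 20%. It was 63.7% at 20% to under 25% and 60.7% at 25% to under 50%. The share of sites alone in their gene went from 8.05% in the lowest band to 36.9% at 10% to under 20%, 41.1% at 20% to under 25% and 36.5% at 25% to under 50%. In both measures the sites at 20% or more were close to those at 10% to under 20%.

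**Figure D3:**
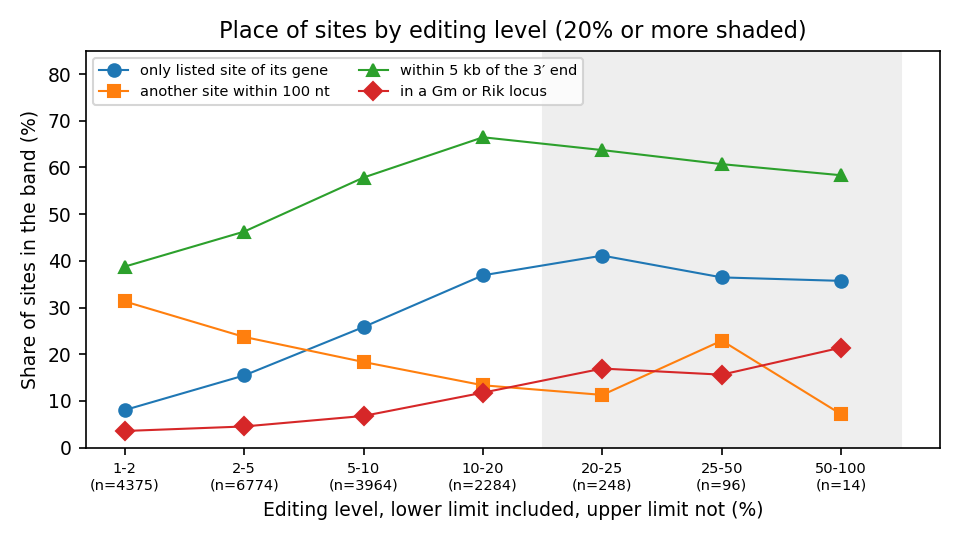
Share of sites (%) in each band of editing level that are alone in their gene, have a neighbour within 100 nt, lie within 5 kb of the 3′ end (sites inside gene spans only) or fall in Gm or Rik loci. The shaded bands are the sites at 20% or more, and the last band has 14 sites only.

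Loci named Gm or Rik, names given to gene models without an assigned function, held 60 of the 358 sites (16.8%, 13.04% to 21.04%), against 5.75% (5.41% to 6.11%) of the others. Under 20% this share also rose with level, from 3.57% at 1% to under 2% to 11.8% at 10% to under 20%. Of these 60, 46 were the only listed site of their locus and 35 lay inside the span of a protein-coding gene of another name. Gm43984 (41.67%), for example, lies inside Etv6. By RefSeq class, 299 of the 358 (83.5%) were in protein-coding genes, against 94.1% of the others, and 19 (5.31%) in long noncoding RNA genes, against 2.20%. A name without a match in RefSeq was given to 38 (10.6%), against 3.47%. More than 1 RefSeq span covered 35 high sites (9.78%) and 8.21% of the others.

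Chromosome 6 stood apart in the spread over the genome. It held 25 high sites among its 479 listed sites (5.22%, 3.41% to 7.61%), against 1.93% on all other chromosomes together. Among the other chromosomes with at least 20 sites the share ran from 0.792% on chromosome 18 (5 of 631) to 2.99% on chromosome X (8 of 268). The most sites were on chromosomes 2 and 5, with 32 each, or 1.93% and 2.41% of their listed sites. By strand, 168 high sites were on plus and 190 on minus.

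**Figure D4:**
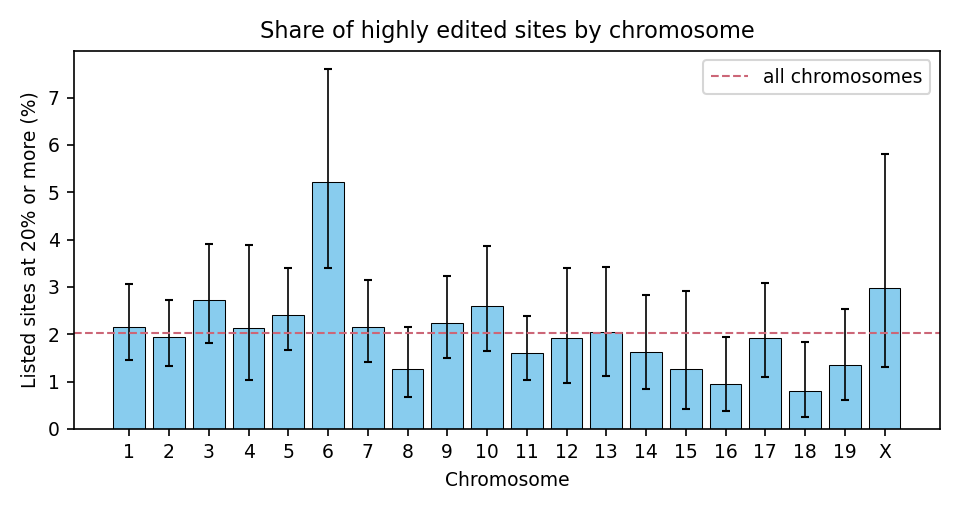
Share of listed sites (%) that were at 20% or more on each chromosome, with exact 95% intervals for counting error. The dashed line is the 2.02% of all sites, chromosome Y with 3 sites is left out, and chromosome 6 at 5.22% is the highest bar.

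The excess on chromosome 6 lay in its last part. In windows of 10 Mb, a division chosen after the values were seen, 9 of the 34 sites from 130 to 140 Mb were high (26.5%). From 120 to 130 Mb it was 5 of 49 (10.2%), and from 140 to 150 Mb 4 of 48 (8.33%). The median over the 228 windows of the genome with 20 or more sites was 1.60%, and the second highest was 12.1%. From 120 to 150 Mb together there were 18 high sites among 131 (13.7%, 8.35% to 20.8%), in 12 of 73 genes. Below 120 Mb on the same chromosome there were 7 among 348 (2.01%, 0.812% to 4.10%), and over all sites outside the stretch 340 among 17624 (1.93%).

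The genes of that stretch have unlike functions. In order along the chromosome, the site of Phb2, a mitochondrial prohibitin gene, was at 30.56%, that of Nop2, a ribosomal RNA methyltransferase gene, at 23.08% and that of Ncapd2, a condensin gene, at 25.00%. Gm45869 followed with 42.11% and Tulp3, a gene of ciliary transport, with 41.67%. Etv6, a transcriptional repressor gene, had 35.00% and 24.24% at positions 81 nt apart. Lrp6 had 54.55% and 37.21% at 129 nt and 22.00% at 70045 nt from the second, while its other 4 sites were at 1.75% to 10.53%. Fam234b had 30.61% and 45.71%, and Eps8 50.00%. Slco1a4, an organic anion transporter gene of brain endothelium, had 30.00%, and Abcc9 had 21.74%, 36.84% and 20.00%.

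The high sites of the stretch spanned 17.97 Mb, from Phb2 (chr6:124716718) to Abcc9 (chr6:142682973), and 7 were on plus and 11 on minus. Their levels, which the rule itself used, are given as a description. Only 1 of the 18 was at exactly 20.00%, against 196 of the 340 outside it, and 12 were at 30% or more, against 59 of the 340. The median was 32.8% in the stretch and 20.0% outside. Sites under 20%, a set cut off at that level, had a median of 4.26% in the stretch and 3.57% outside. Apobec1, the endogenous deaminase gene, lies at chr6:122577792-122603024, 2.11 Mb before the Phb2 site, and had 0 listed sites. The stretch was picked for its high share, so no test is given, and whether genomic variants lie in it was not tested.

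**Figure D5:**
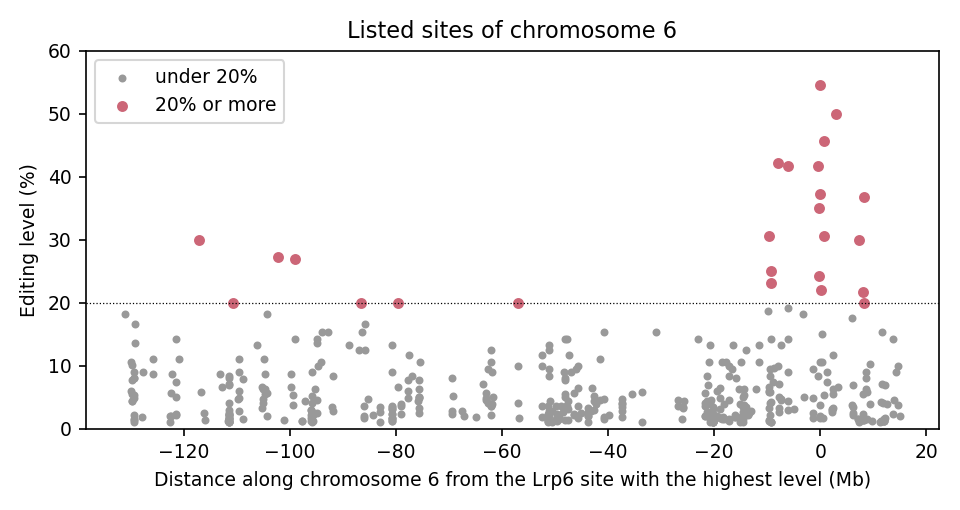
Editing level (%) of every listed site of chromosome 6 against its distance in Mb from the Lrp6 site with 54.55%. Red points are sites at 20% or more: 18 of the 25 lie from about 10 Mb before that site to about 8 Mb after it.

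In the gene groups chosen for cortex, the share of genes with a high site was close to the 4.89% of all genes. It was 3 of the 51 marker genes with a site (5.88%) and 8 of the 141 such genes of the functional lists (5.67%). Of the 30 neuronal markers 16 had a listed site and 1 a high one. Of the 46 markers of glia and vessels 35 had a listed site and 2 a high one, P2ry13, a microglial purine receptor gene (20.00%, others 8.70% and 6.25%), and Pdgfra, a receptor gene of oligodendrocyte precursors (20.00% and 8%). The 178 sites of 7 astrocyte markers, the 60 of 8 endothelial and pericyte markers and the 56 of 9 oligodendrocyte markers included 0 high sites. The 19 sites of 5 pan-neuronal markers and the 6 of 3 inhibitory markers also included 0. Of all listed sites 2.02% were high. Rbfox3, which encodes NeuN, had no listed site.

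Synaptic genes had 6 high sites among 178 (3.37%, against 2.02% of all sites), in 5 of the 41 genes with a site. Among these were Nlgn1, a postsynaptic adhesion gene (23.08%, other site 3.08%), Erc2, an active zone gene (20.00%, others 4.08% and 9.09%), and Dlgap2, a postsynaptic scaffold gene (20.00%, its only site). Chromatin regulators had 2 among 183 (1.09%), both in Kmt2c. Ion channel genes had 1 among 83, in the potassium channel gene Kcna2 (20.00%, others 11.11% and 2.7%). Nuclear long noncoding RNAs had 1 among 78, in Snhg14 (20.59%, the other 7 sites from 1.12% to 8.70%). The cytoskeleton and axon genes had 0 among 219, and the m6A machinery 0 among 36. Over the 185 genes of these lists, editing enzymes and known APOBEC1 partners included, 10 of 784 sites were high (1.28%, against 2.02% of all sites).

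Families defined by the start of the symbol can be read against the overall 2.02%. Zinc finger genes starting with Zfp had 2 among 319 sites (0.627%), Slc transporter symbols 5 among 352 (1.42%, Slco1a4 included) and Tmem genes 6 among 150 (4%). Rnf genes had 4 among 95 (4.21%), 2 of them in Rnf213. Usp genes had 0 among 100 and Map symbols 0 among 130. Symbols starting with Rpl had 1 among 33, in Rpl9 (20.00%). Those starting with Rps had 2 among 22, in Rps25 and in the kinase gene Rps6ka3.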

How the data were processed

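The authors called C-to-U sites with Bullseye, per the series' design text, after alignment with STAR 2.7.5 to mm10, per the submitters' processing notes. Its settings, its control and the way the libraries were merged are not given in the sources read here. The deposited values are editing fractions per site, with no header and no coverage, and are printed here as percent. The labels name polyA RNA and a total RNA kit, so the RNA fraction is uncertain.

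Sites with a fraction of 0.20 or more were selected (Python 3.11.15, pandas 2.3.3). Gene spans came from RefSeq GRCm38.p6, the assembly of mm10: 320 of the 358 names matched and 311 sites lay inside the span. The strand of a gene was taken from its sites, and distances are to the ends of the span, introns included. Exons were not annotated. Positions are 1-based. Intervals are exact (Clopper-Pearson, scipy 1.17.1), and the neighbour search was checked on simulated positions. No p-value was computed, since sites of 1 pooled list are not replicates.

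The sites and gene lists were chosen with earlier results of these data known. Named were all sites at 50% or more, genes with 2 or more high sites, with 10 or more listed sites or with a neighbour within 20 nt, members of the lists, and the sites nearest the minimum. Genes of the chromosome 6 stretch, of the gene families and of the promoter windows were named after their values were seen. A few genes that this rule would name are not reported here, though their sites are in the counts.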

Additional observations from a re-analysis of the deposited data

How the results depend on the processing

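Of 38 recomputed values, 24 stayed within the 95% interval of the reported value (for counts, within 1.5 times) and 14 moved further. The number of sites was 1054 at a minimum of 15%, 110 at 25%, 71 at 30% and 161 when sites at exactly 20.00% were left out. Among the 311 sites inside spans, 25.1% lay within 1 kb and 72.3% within 10 kb of the 3′ end. Without Gm and Rik loci 32.2% of sites were alone in their gene. A neighbour within 100 nt was found for 21.7% of sites above 20.00% and 20.9% at 25% or more, and over all 358 the share was 3.35% within 20 nt and 34.6% within 1000 nt. At 50% or more, 21.4% of the 14 sites were in Gm or Rik loci. The median neighbour was 12.5% for neighbours within 100 nt and 4.705% over all other sites of the genes. Leaving out the chromosome 6 stretch, an alternative chosen after seeing the data, moved none of the 5 measures recomputed without it beyond their intervals. The planned base context of all sites was not run, for lack of a genome sequence, and leaving out a library was not possible in a pooled list. No paired analysis was possible because the series has 1 group.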

Other observations

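Some highly edited sites of different genes lay next to each other outside chromosome 6, where 18 neighbouring pairs were within 200 kb. How often other listed sites lie as close was not counted, so this number has no background. In 10 of these 18 pairs both levels were above 20.00%, and in 2 both were at 20.00%. Of all 358 high sites, 161 were above 20.00% and 197 at it. The closest pair was on chromosome 1, where Rab3gap2, a regulator gene of Rab proteins, had 35.53% on the plus strand (chr1:185284422) and Iars2, the mitochondrial isoleucyl-tRNA synthetase gene, had 35.71% on the minus strand (chr1:185286455), 2033 bp away. The Iars2 position is outside its RefSeq span and inside that of Rab3gap2. A further Iars2 site was at 29.85%, and Eprs, another tRNA synthetase gene nearby, had 28.00% and 19.44%. Of the 15 sites listed in this neighbourhood 4 were at 20% or more, and the remaining sites apart from that of 19.44% were between 1.49% and 6.45%.

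On chromosome 5, the transcription factor genes Gtf2i (26.59%) and Gtf2ird1 (31.48%) and the locus 2700029L08Rik (29.63%) each had a high site, 94.5 kb and 136 kb apart in that order. Gaa, the gene for lysosomal alpha-glucosidase (31.43%), lay 139 kb from the first Rnf213 site (31.595%) on chromosome 11. These pairs were chosen after their values were seen, and whether they share a genomic variant background was not tested.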
